A study of Saccharomyces cerevisiae with 15 samples.

Results

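Loss of the histone variant H2A.Z and loss of the enzyme that places it were set against each other in budding yeast, Saccharomyces cerevisiae, by RNA sequencing. The comparison used 7 of the 15 libraries of the series: 4 libraries with HTZ1, the gene for H2A.Z, deleted, against 3 libraries with SWR1, the gene for the ATPase of the SWR1 remodeller, deleted. The htz1 side held htz1 1 and htz1 2 (2 libraries of the htz1 deletion), htz1 xrn1 and htz1 upf1, and the swr1 side held swr1, swr1 xrn1 and swr1 upf1. Each double deletion and the swr1 deletion had 1 library. As controls with both genes present, 6 libraries were used: wild type 1, wild type 3, xrn1 1, xrn1 2, upf1 1 and upf1 2. XRN1 encodes the main cytoplasmic exonuclease that degrades decapped RNA, and UPF1 (NAM7 in the table) encodes a helicase of nonsense-mediated decay, so each deletion was compared with its partner in the same RNA-decay background. All strains were haploid, of the BY4741/2 background, auxotrophic for histidine, leucine and uracil, and in mid-log growth in rich glucose medium. A last pair, a prp43 DAmP htz1 library and a prp43 DAmP library, carried a reduced-abundance allele of PRP43, a helicase of splicing and ribosome assembly, and had no swr1 partner.

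H2A.Z replaces H2A in the nucleosomes beside gene starts, where its presence is associated with the switching of inducible genes and with the boundaries of silent chromatin. The SWR1 complex exchanges H2A for H2A.Z, so a cell without SWR1 still makes the variant but incorporates little of it, while a cell without HTZ1 keeps the complex without its substrate. In yeast, the phosphate genes are a classic case of chromatin-regulated induction: the activator Pho4 binds the letters CACGTG or CACGTT in their promoters and, with Pho2, opens the nucleosomes there.

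The deleted genes were as labelled. HTZ1 had 0, 0, 0.272 and 0 RPKM (reads per kilobase of gene, scaled to library size) in htz1 1, htz1 2, htz1 xrn1 and htz1 upf1, against 109, 113 and 118 RPKM in swr1, swr1 xrn1 and swr1 upf1. SWR1 had 58.6, 34.8, 94 and 67.6 RPKM in the same htz1 libraries, against 0.0658, 0.0972 and 0 RPKM in the swr1 libraries. HTZ1 mRNA in the swr1 libraries thus lay within the 99.6 to 137 RPKM of the controls. SWR1 mRNA in htz1 1, htz1 xrn1 and htz1 upf1 lay above the 23.0 to 56.4 RPKM of the controls, and in htz1 2 within it. In the model of 13 libraries described below, SWR1 differed from the controls by 0.83 ± 0.21 in htz1 (adjusted p = 0.061, limma). The genes beside the deletions did not pass the test: HRD1 and PLB3 beside HTZ1 differed by 0.32 ± 0.13 and 0.22 ± 0.15 on the log2 scale (htz1 minus swr1, ± SE), and RQC1 and MSN5 beside SWR1 by -0.12 ± 0.13 and -0.15 ± 0.23. Of the other 12 genes listed for the SWR1 complex, none passed.

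The 2 sides also differed in mating type. The 7 MATa-specific genes (STE2, MFA1, MFA2, STE6, BAR1, AGA2, ASG7) summed to between 1439 and 2099 RPKM in the htz1 libraries and between 8.66 and 42.8 RPKM in the swr1 libraries, where AGA2 was at 0 in swr1 and MFA2 at 0 in swr1 upf1. The 6 MATalpha markers (STE3, MF(ALPHA)1, MF(ALPHA)2, SAG1, HMLALPHA1, HMLALPHA2) summed to between 47.8 and 244 RPKM in the htz1 libraries and between 3516 and 4069 RPKM in the swr1 libraries. Among the controls, wild type 1 had the MATalpha pattern, with 18.3 RPKM of MATa genes, and the other 5 had the MATa pattern, with 1055 to 1905 RPKM. The 5 diploid or sporulation markers summed to 11.5 to 49.4 RPKM in the htz1 libraries and 15.2 to 56.0 RPKM in the swr1 libraries, against the 11.6 to 55.5 RPKM of the 5 MATa controls. Among the 7 libraries, therefore, gene deletion and mating type cannot be told apart, and for SPL2, PHO84, VTC3, VTC4, PHO5, FIT2, DAN1 and TIR1 below the level in wild type 1 is given beside the range of the 5 MATa controls. Reads implied by the table numbered between 7160197 (swr1 upf1) and 52087637 (swr1 xrn1) per library. The share of RPKM in reading frames that lie in the ribosomal DNA was 21.3% in htz1 1 and 16.1% in htz1 upf1 but 0.434% in htz1 2 and 0.0394% in htz1 xrn1, against 12.2% to 17.0% in the swr1 libraries and at most 2.5% in the controls. The labels do not say whether replicates are separate cultures, so htz1 1 and htz1 2 may differ by library preparation alone. In the fit of the 7 libraries, the rest of the spread behind each p-value is how the difference between the deletions varied between backgrounds.

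Over the 3 backgrounds, 26 of 6495 genes passed at an adjusted p under 0.05 (0.4%; limma on log2(RPKM + 1) with Benjamini-Hochberg adjustment). In htz1 14 genes were higher (0.216%) and 12 lower (0.185%) than in swr1. Of the 26, 23 were the deleted genes, mating-type genes, or genes and frames beside mating-type genes: 7 MATa-specific genes were higher and 6 MATalpha-specific genes lower. Only 3 genes lay outside those classes: SPL2 fell, and DAN1 and FIT2 rose, in htz1 relative to swr1. They belong to 3 separate systems, phosphate supply, the cell wall of oxygen-poor cells and iron uptake, and each is described below with the rest of its group. A wider, unadjusted criterion (p under 0.05) was met by 634 genes (9.76%), of them 572 on the higher side (8.81%) and 62 on the lower side (0.955%), a background against which each group's counts are read. That split moves with the libraries: it was 515 higher and 201 lower with all libraries scaled to the same median log ratio, 490 and 259 with htz1 1 left out, and 509 and 813 with htz1 1 and htz1 upf1, the htz1 libraries rich in rDNA reads, both left out. "On the same side" below means that the htz1 value lay above, or below, the swr1 value in each of the 3 backgrounds. This held for 1358 genes upward (20.9%) and 324 downward (4.99%), and 106 (1.63%) and 51 (0.785%) had no overlap at all between the 4 htz1 and 3 swr1 libraries. The median difference over all genes was 0.07.

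Phosphate genes were lower in htz1 than in swr1, with the lowest median difference of the lists examined apart from the MATalpha genes and the rDNA reading frames. Of the 21 genes of the phosphate regulon tested, 14 were lower in htz1 at an unadjusted p under 0.05 and none higher, 14 lay lower on the same side in each background, and 10 had no overlap between the sides. The count of 14 was 7 with the swr1 library left out and 2 with the STE2 level as a term, and 12 to 14 in the other alternatives. STE2 is a MATa-specific gene, so that term also takes up much of the difference between the deletions. SPL2 passed the adjusted test. The group's median difference was -0.92. The summed level of the 21 genes was 881, 756, 1374 and 979 RPKM in htz1 1, htz1 2, htz1 xrn1 and htz1 upf1, against 3129.9, 2542 and 1604 RPKM in swr1, swr1 xrn1 and swr1 upf1, and 1935 to 3616 RPKM over the controls. Every htz1 sum thus lay below every swr1 sum and below every control sum.

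SPL2 (YHR136C, chrVIII:374654-375100, minus strand, 1 exon) encodes a small protein that turns down low-affinity phosphate transport when the high-affinity system is on. It had 3.43, 2.07, 14.2 and 1.99 RPKM in htz1 1, htz1 2, htz1 xrn1 and htz1 upf1, against 91, 99 and 19.7 RPKM in swr1, swr1 xrn1 and swr1 upf1. The sides did not overlap, with htz1 xrn1 the highest of the htz1 libraries and swr1 upf1 the lowest of the swr1 libraries. The difference was -3.51 ± 0.41 on the log2 scale (± SE; adjusted p = 0.026, limma). It no longer passed when any 1 of the xrn1 or upf1 double deletion libraries was left out (differences of -3.85 and -3.82, adjusted p from 0.0634 to 0.0848), nor with htz1 1 and htz1 upf1 both left out (-3.81, 0.101), nor with the STE2 level as a term (-2.23, adjusted p = 0.271). Wild type 1, with the MATalpha pattern, had 88.8 RPKM of SPL2, inside the 18.1 to 119 RPKM of the 5 MATa controls, of which wild type 3 had 34.8 RPKM.

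The promoter sequences of 4 phosphate genes are shown because the Pho4 letters recur in the group. They are from RefSeq, build R64 (the assembly the labels call sacCer3), and each runs 5′ to 3′ on its gene's own strand. Capitals mark CACGTG or CACGTT on either strand (AACGTG is CACGTT read on the other strand). The stretches are chrVIII:375201-375500 for SPL2, chrXIII:26051-26250 for PHO84, chrXVI:517269-517418 for VTC3 and chrX:413500-413599 for VTC4, all on the minus strand.
SPL2: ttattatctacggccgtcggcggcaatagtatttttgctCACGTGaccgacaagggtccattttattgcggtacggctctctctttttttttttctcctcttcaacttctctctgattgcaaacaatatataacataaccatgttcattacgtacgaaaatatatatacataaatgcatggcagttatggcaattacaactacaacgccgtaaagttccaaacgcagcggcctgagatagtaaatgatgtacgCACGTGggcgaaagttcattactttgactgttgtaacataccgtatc
PHO84: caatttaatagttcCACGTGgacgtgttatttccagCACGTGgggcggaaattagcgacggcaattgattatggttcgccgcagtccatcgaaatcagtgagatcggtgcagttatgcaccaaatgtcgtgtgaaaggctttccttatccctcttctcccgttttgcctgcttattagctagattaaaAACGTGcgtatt
VTC3: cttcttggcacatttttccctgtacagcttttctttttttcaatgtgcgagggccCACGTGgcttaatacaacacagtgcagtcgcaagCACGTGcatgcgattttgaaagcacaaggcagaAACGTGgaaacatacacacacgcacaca
VTC4: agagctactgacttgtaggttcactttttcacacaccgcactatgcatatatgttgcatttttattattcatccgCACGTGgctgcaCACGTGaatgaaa

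In the 500 bases before the start codon, on both strands, all 14 members that were lower in htz1 held CACGTG. The other 7 members held it in 2 cases (GDE1 and GPP2), and 6.30% of 5893 protein-coding genes held it. CACGTG or CACGTT occurred at least 2 times in 12 of the 14, and SPL2 alone held CACGTG 4 times, 2 of them in the stretch above. Of 41 tested genes with at least 2 CACGTG, 5 were lower at an unadjusted p under 0.05, all of them phosphate genes, and 10 were higher. Of 323 tested genes with 1, 11 were lower, 2 of them outside the phosphate regulon, and 27 were higher. Of 5428 with none, 33 were lower (0.608%) and 489 higher. Some of these windows overlap: CTF19 and VTC3 are neighbours that share both of their CACGTG sites, so that the 14 members hold 19 distinct sites. Of the 41 genes, 21 share a site with another of the 41. SPL2 is among them and shares CACGTG with ARO9, which was not among the 5 lower genes. The regulon is itself a list of genes tied to Pho4, so the letters are part of what its members share by choice. These are counts of letters, and no binding was measured.

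Among the transporters, PHO84, the high-affinity proton-coupled phosphate importer of the plasma membrane, was among the genes with the largest differences (chrXIII:24037-25800, minus strand, 1 exon). It had 47.1, 20.6, 129 and 59 RPKM in htz1 1, htz1 2, htz1 xrn1 and htz1 upf1, against 1064, 675 and 338 RPKM in swr1, swr1 xrn1 and swr1 upf1. The sides did not overlap, yet the libraries of each side were spread widely: the difference was -3.48 ± 0.57 with an adjusted p of 0.12. Within the wild-type background PHO84 passed (difference -5.05, adjusted p = 0.043), and its differences were -2.37 in the xrn1 and -2.50 in the upf1 background. PHO84 in wild type 1 was 954 RPKM, close to the top of the 366 to 957 RPKM of the MATa controls, and wild type 3 had 443 RPKM. PHO89, the sodium-coupled importer, ranged over 0.158 to 13.8 RPKM in htz1 and 2.67 to 29.6 RPKM in swr1, with the htz1 xrn1 library above swr1 upf1 (difference -2.18 ± 0.62). GIT1, which imports glycerophosphoinositol, was low on both sides, at 0.105 to 1.19 RPKM in htz1 and 0.329 to 2.78 RPKM in swr1.

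The VTC genes encode the complex that makes polyphosphate at the vacuole membrane, the store of spare phosphate. VTC4, its polymerase subunit, had 68.1, 60.8, 81.9 and 59.1 RPKM in the htz1 libraries in the order above, against 253, 164 and 122 RPKM in the swr1 libraries. VTC3, a regulatory subunit, had 35.3, 30.5, 44.5 and 36.6 RPKM in the htz1 libraries and 219, 115 and 91.6 RPKM in the swr1 libraries. Neither overlapped between the sides. Their differences were -1.39 ± 0.21 and -1.88 ± 0.29, with adjusted p of 0.097 and 0.098. VTC4 passed in 2 and VTC3 in 1 of 23 alternatives, with adjusted p from 0.0248 (the model of 13 libraries, for both) to 0.383 and 0.399 (for VTC4 and VTC3, with the STE2 level as a term). In wild type 1 VTC4 had 296 and VTC3 291 RPKM, above the 155 to 252 and 104 to 199 RPKM of the MATa controls. VTC1 and VTC2 differed by -1.09 ± 0.25 and -0.68 ± 0.17 and did not overlap between the sides either.

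The secreted acid phosphatases, which free phosphate outside the cell, followed the same order. PHO5 had 19.8, 15.3, 68.1 and 58.5 RPKM in the htz1 libraries, against 87.1, 149.6 and 80.9 RPKM in the swr1 libraries (difference -1.38 ± 0.33). Wild type 1 had 106 RPKM of PHO5, within the 69.8 to 229 RPKM of the MATa controls. PHO11 and PHO12 are near-identical copies whose reads can be assigned to either, and differed by -1.94 ± 0.59 and -1.95 ± 0.59. PHO11 differed by -3.55 in wild type, -0.22 in xrn1 and -1.52 in upf1, and these values did not pass the test of a difference between backgrounds. PHM6, a gene of unknown function in the regulon, had 6.0, 1.38, 2.1 and 1.77 RPKM in htz1, against 16.3, 12.5 and 7.98 RPKM in swr1 (difference -1.98 ± 0.39). Smaller differences were seen for PHO81, which inhibits the Pho80-Pho85 kinase (-0.92 ± 0.28), for CTF19, a kinetochore gene with Pho4 letters in its promoter (-0.54 ± 0.17), and for PHO86, needed to export Pho84 from the endoplasmic reticulum (-0.45 ± 0.16).

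Of the other 7 members, 4 were higher in htz1 than in swr1. PHO8 (vacuolar alkaline phosphatase), PHM8 and PPN1 (phosphatases acting on nucleotides and polyphosphate), GDE1, GIT1, GPP2 and PHM7 differed by between -0.39 and 0.94, with none at an unadjusted p under 0.05. None of the regulators passed either. PHO4 had 36.4, 39.4, 161 and 59 RPKM in the htz1 libraries and 35.6, 149 and 57.9 RPKM in the swr1 libraries, varying mainly with background, and its partner PHO2 differed by -0.08 ± 0.16. Of 11 regulators and low-affinity transporters, including PHO80, PHO85 and the PHO87, PHO90 and PHO91 transporters, none was past an unadjusted p of 0.05, and their median difference was -0.08.

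**Figure D1:**
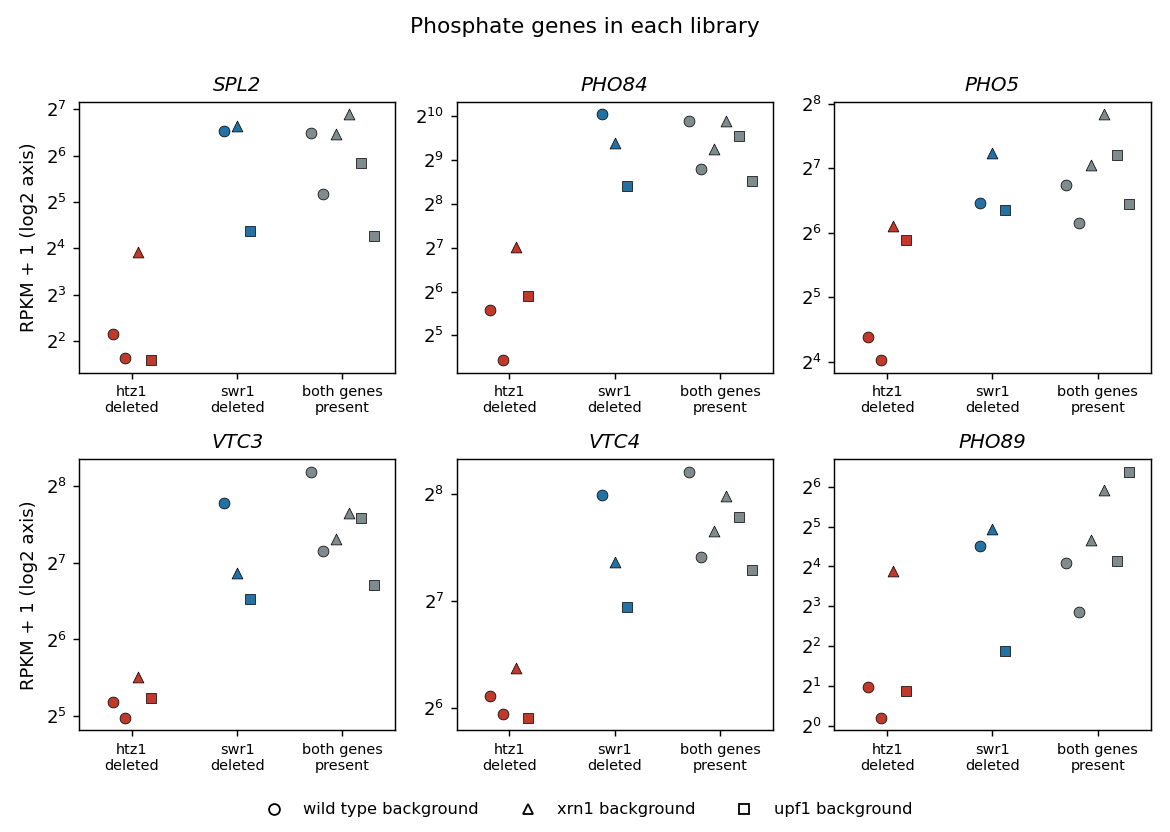
RPKM + 1 (log axis) of phosphate genes in each library (1 point each, shaped by background), with the 4 htz1 libraries left of the 3 swr1 libraries and the controls last. SPL2, PHO84, VTC3 and VTC4 show no overlap between the htz1 and swr1 points, and each gene has swr1 points within the range of the controls.

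Set against the controls, more phosphate genes passed in htz1 than in swr1. In a model of 13 libraries (4 htz1, 3 swr1, 6 controls, background as a term), htz1 called 30 genes higher (0.462%) and 67 lower (1.03%), and swr1 called 24 higher (0.37%) and 241 lower (3.71%). Both deletions share the same controls there. Of the 21 phosphate genes, 11 fell in htz1 and 2 fell in swr1, with medians of -1.10 and -0.29, against medians of -0.02 and -0.08 over all genes. SPL2 fell by -3.52 ± 0.38 in htz1 (adjusted p = 0.0025), and its value in swr1 was -0.01 ± 0.42. PHO84 was -3.55 ± 0.43 in htz1 (adjusted p = 0.0029) and -0.03 ± 0.46 in swr1. The 2 members that fell in swr1 were GIT1, which fell in both (-2.21 ± 0.34 in htz1, adjusted p = 0.012; -1.94 ± 0.37 in swr1, adjusted p = 0.016), and GPP2, a glycerol-3-phosphatase (-0.52 ± 0.23 in htz1, -1.04 ± 0.25 in swr1, adjusted p = 0.254 and 0.037). The controls mix both mating-type patterns, and 1 of the 2 wild-type libraries has that of the swr1 libraries.

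**Figure D2:**
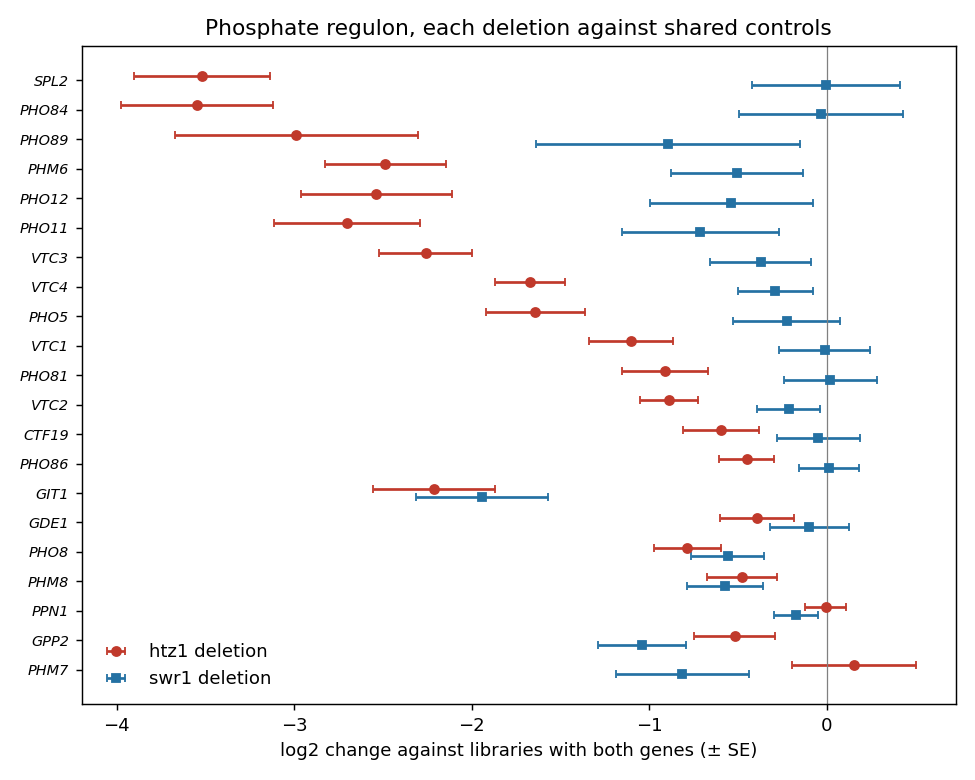
Log2 difference (± SE) of each phosphate gene from the controls with the same background, for htz1 (circles) and swr1 (squares), from the 13-library model. The htz1 value of SPL2 lies at -3.52 and of PHO84 at -3.55, while the swr1 values lie at -0.01 and -0.03.

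The prp43 DAmP pair gave a further view of HTZ1 loss, in single libraries with no replicate check. SPL2 had 1.29 RPKM in prp43 DAmP htz1 and 7.84 RPKM in prp43 DAmP, and PHO84 had 18.8 and 112 RPKM. Phosphate genes were already low in prp43 DAmP, which has HTZ1. Its SPL2 and PHO84 values lay below every control. Its sum over the 21 genes was 1194 RPKM, against 758 RPKM in prp43 DAmP htz1 and 1935 to 3616 RPKM in the controls. Of the 21 phosphate genes 20 were lower with HTZ1 deleted, with a median of -0.60, against 3396 of 6495 genes and a median of -0.02.

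More than the background share of iron genes were higher in htz1 than in swr1. Of the 33 genes of the iron regulon, which the factor Aft1 switches on when iron is short, 18 were higher at an unadjusted p under 0.05 and 1, FRE1 (a ferric reductase, -0.62 ± 0.24), was lower, and 21 were higher on the same side in each background. The count of 18 was 9 with either xrn1 library left out, 11 with swr1 or either upf1 library left out, and 8, 5 and 2 in models of 1 mean per genotype, of 13 and of 15 libraries. Their median difference was 0.38. FIT2 rose past the adjusted threshold. It encodes a mannoprotein that holds iron-siderophore complexes in the cell wall and lies near the right end of chromosome XV (YOR382W, chrXV:1059531-1059992, plus strand, 1 exon). It had 134, 182, 256 and 197 RPKM in htz1 1, htz1 2, htz1 xrn1 and htz1 upf1, against 66.5, 85 and 67.1 RPKM in swr1, swr1 xrn1 and swr1 upf1. The lowest htz1 library was above the highest swr1 library, and the difference was 1.42 ± 0.16 (adjusted p = 0.021). This call was lost with swr1 left out (0.12), with any xrn1 or upf1 library left out (0.16 to 0.191), with htz1 1 and htz1 upf1 left out (0.0627), and in each model that added the control libraries (0.286 to 0.786), always with a positive difference. FIT2 had 71.6 RPKM in the MATalpha-pattern wild type 1, above the 7.78 to 51.4 RPKM of the MATa controls.

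A 250-base stretch of the FIT2 promoter (RefSeq, R64, chrXV:1059181-1059430, plus strand) is shown for the 4 copies in it of GCACCC, the core letters of Aft1 sites, in capitals (GGGTGC on the other strand).
FIT2: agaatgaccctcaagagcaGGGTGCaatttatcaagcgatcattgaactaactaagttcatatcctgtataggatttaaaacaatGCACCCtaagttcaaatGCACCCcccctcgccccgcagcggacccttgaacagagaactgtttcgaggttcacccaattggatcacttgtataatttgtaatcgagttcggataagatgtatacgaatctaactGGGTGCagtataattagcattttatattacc

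Within 500 bases of the start codon, 15 of the 18 iron genes that were higher and 10 of the other 15 held GCACCC, against 7.74% of 5893 genes. The iron regulon is itself a list of genes tied to Aft1, so these letters too are part of what its members share by choice. No binding was measured. FIT3, the neighbouring mannoprotein gene, had 229.9, 376, 355 and 452 RPKM in htz1, against 92.3, 221 and 175 RPKM in swr1 (difference 1.28 ± 0.25, no overlap), and FIT1 differed by 1.41 ± 0.25. Of the siderophore transporters, SIT1, ARN1 and ARN2 differed by 1.00 ± 0.15, 0.77 ± 0.16 and 1.01 ± 0.22. TIS11, which directs the decay of mRNAs of iron-using proteins, differed by 0.90 ± 0.15. SIT1 had 221 RPKM in htz1 xrn1 and 87.7 RPKM in swr1 xrn1, above the 49.2 to 66.6 RPKM of the other 3 htz1 libraries. Of the xrn1 controls, SIT1 was high in xrn1 1 only, at 129.8 RPKM, and had 28.7 RPKM in xrn1 2. The high-affinity uptake pair FTR1 and FET3 differed by 0.42 ± 0.15 and 0.33 ± 0.13. Against the controls 3 iron genes rose in htz1: FIT2 (2.70 ± 0.50, adjusted p = 0.023), FIT3 (1.68 ± 0.27, 0.017) and ARN1 (1.18 ± 0.22, 0.023). In swr1 none of the 33 passed, and FIT2 stood at 1.44 ± 0.54. In the prp43 DAmP pair the direction was the other way for 25 of the 33, and 3396 of 6495 genes were lower in prp43 DAmP htz1. FIT2 had 62.2 RPKM in prp43 DAmP htz1 and 165 RPKM in prp43 DAmP.

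Among genes of the wall and membrane of oxygen-poor cells DAN1 rose, and most others did not pass even the unadjusted criterion. DAN1 (YJR150C, chrX:708811-709707, minus strand, 1 exon), a mannoprotein gene that is nearly silent in aerated yeast, had 8.83, 13.5, 99.9 and 12.7 RPKM in htz1 1, htz1 2, htz1 xrn1 and htz1 upf1, against 0.0952, 2.98 and 0.934 RPKM in swr1, swr1 xrn1 and swr1 upf1. It rose by 3.62 ± 0.36 (adjusted p = 0.012), with no overlap and with htz1 xrn1 far above the other htz1 libraries. Wild type 1 had 4.24 RPKM, again above the MATa controls, which had 0.385 to 1.21 RPKM. The call was lost with a pseudocount of 5 RPKM (difference 2.25, adjusted p = 0.151), with swr1 left out (3.74, 0.0776), with htz1 1 and htz1 upf1 left out (4.20, 0.0631), with rDNA share as a term (3.03, 0.114) and with STE2 level as a term (6.05, 0.199).

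A 300-base stretch of the DAN1 promoter (RefSeq, R64, chrX:709858-710157, minus strand) is shown because it holds both hypoxic motifs searched. Capitals mark TCGTTTAG and TCGTATA, the second on the other strand (TATACGA).
DAN1: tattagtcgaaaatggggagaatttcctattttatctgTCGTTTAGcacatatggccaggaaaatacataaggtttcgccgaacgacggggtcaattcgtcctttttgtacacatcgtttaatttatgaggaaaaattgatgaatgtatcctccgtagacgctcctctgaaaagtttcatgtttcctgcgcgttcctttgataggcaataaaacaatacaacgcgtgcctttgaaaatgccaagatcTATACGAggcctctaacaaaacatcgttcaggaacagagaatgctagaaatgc

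Either motif occurred within 500 bases of the start in 10 of 18 wall genes, against 8.60% of 5893 genes. The wall genes were listed as genes of oxygen-poor cells, so this share is partly set by that choice. TIR1, a cold- and anaerobic-shock mannoprotein, had 224, 319, 189 and 244 RPKM in htz1, against 55, 34.4 and 122 RPKM in swr1 (difference 1.93 ± 0.29, adjusted p = 0.087, no overlap). Wild type 1 had 159.9 RPKM of TIR1, within the 14 to 184 RPKM of the MATa controls. Of the 30 PAU, DAN and TIR genes listed, 18 passed the filter on low values, through which genes that are high in any library pass more easily. Of these DAN1, TIR1, TIR2 (0.81 ± 0.23) and PAU5 (2.12 ± 0.40) were past an unadjusted p of 0.05, all higher, and the median was 0.43. The PAU genes are a family of close copies, so single members are uncertain. Of 19 sterol-uptake and hypoxic genes 7 were higher at that p and none lower, with a median of 0.49, and 3 were higher with either xrn1 library left out. HEM13, for heme synthesis, had 59.7 to 95.5 RPKM in htz1 and 42.5 to 54.6 RPKM in swr1, and ANB1, the hypoxic form of translation factor eIF5A, had 25.9 to 47.9 and 7.82 to 17.8 RPKM. HEM13 spanned 50.5 to 492 RPKM and ANB1 1.74 to 54.7 RPKM over the controls, so ANB1 on both sides and HEM13 in htz1 lay within the range of the controls, and swr1 and swr1 upf1 lay below it for HEM13 (47.1 and 42.5 RPKM). The prp43 DAmP pair ran the other way, with DAN1 at 7.17 RPKM in prp43 DAmP htz1 and 314 RPKM in prp43 DAmP, and TIR1 at 209 and 4409.8 RPKM. All 18 wall genes were lower in prp43 DAmP htz1 of that pair, against 3396 of 6495 genes. They summed to 268 RPKM there and 5429.5 RPKM in prp43 DAmP. The filter on low values used the mean of all 15 libraries, prp43 DAmP among them, so this count is partly set by the filter.

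**Figure D3:**
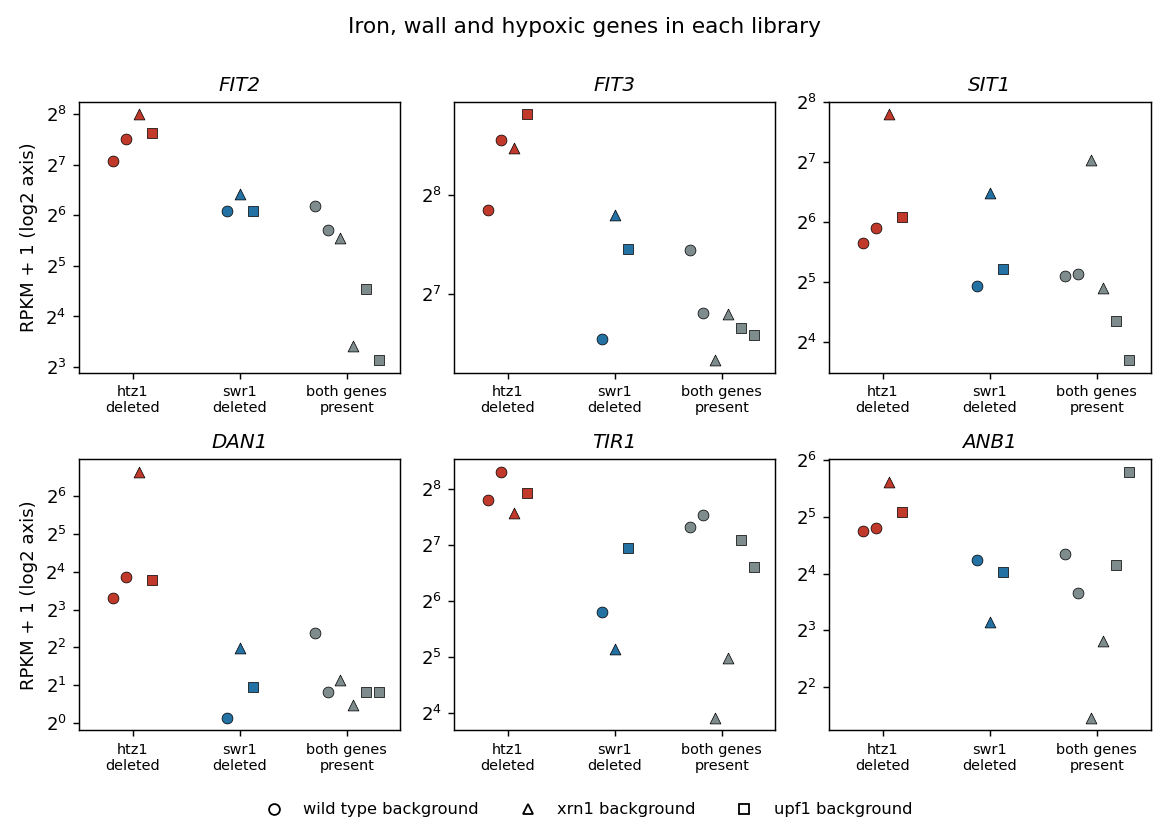
RPKM + 1 (log axis) of iron, cell wall and hypoxic genes in each library (1 point each, shaped by background), htz1 left of swr1 and controls last. FIT2, FIT3, DAN1 and TIR1 show every htz1 point above every swr1 point, and in FIT2, FIT3 and DAN1 every htz1 point also lies clear above the control points.

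Stress-response genes were higher in htz1 in most cases, with no single gene past the adjusted test. Of 36 general stress genes (targets of the activators Msn2 and Msn4, with MSN2 and MSN4 themselves) 21 were higher in htz1 at an unadjusted p under 0.05, 27 were higher on the same side in each background, and 35 of 36 had a positive difference, with a median of 0.65. The count of 21 was 11 with either xrn1 library left out and 15 to 26 in the other alternatives. PNC1, a nicotinamidase, had 328, 447, 416 and 297 RPKM in htz1, against 229, 229.9 and 144 RPKM in swr1 (difference 0.86 ± 0.15, adjusted p = 0.136). Its sides did not overlap. Genes of trehalose and glycogen metabolism were among the group: TSL1 and TPS1 of trehalose synthesis differed by 1.19 ± 0.23 and 0.79 ± 0.16, GPH1 of glycogen breakdown by 0.77 ± 0.16, and the glucose-phosphorylating enzymes GLK1 and HXK1 by 1.15 ± 0.22 and 1.18 ± 0.24. These genes vary strongly in the controls, where HXK1 spanned 83 to 1222 RPKM. Against the controls the group's medians were 0.26 in htz1 and -0.31 in swr1. In swr1 2 of the 36 fell, a share close to the 3.71% of all genes. They were GRE1 (-0.71 ± 0.16) and GPP2, the gene also counted with the phosphate list. Of 30 heat shock genes 3 were higher, a share close to the 8.81% of all genes, among them the small heat shock protein gene HSP26 (1.35 ± 0.27) and SSA4, an inducible Hsp70 (0.61 ± 0.16), with a median of 0.29. HUG1, a DNA-damage gene that restrains ribonucleotide reductase, had 10.3 to 42.5 RPKM in htz1 and 4.05 to 7.43 RPKM in swr1 (difference 1.42 ± 0.37), and 7 of 24 damage genes were higher with a median of 0.22.

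Nitrogen and sulfur genes were higher in htz1 in a larger share than the 8.81% of all genes. Against the controls, 6 nitrogen and 8 vitamin genes fell in swr1, where 3.71% of all genes fell. Of 21 nitrogen catabolite genes tested (26 in the table), 10 were higher in htz1 at an unadjusted p under 0.05, none lower, and the median was 0.56. The count of 10 was 5 with swr1 or either xrn1 library left out and 6 with either upf1 library left out. DAL3, of allantoin breakdown, had 2.78, 2.32, 10.4 and 10.3 RPKM in htz1, against 0.363, 2.74 and 4.51 RPKM in swr1 (difference 1.34 ± 0.23). Against the controls it fell by -1.47 ± 0.19 in swr1 (adjusted p = 0.0048), and its htz1 value was -0.15 ± 0.17. DAL1, DAL2, DAL4, DCG1 and UGA4 also fell in swr1, and none of the 21 passed in htz1. UGA1 and GAT1, a transaminase and a GATA activator of the same system, differed by 0.63 ± 0.12 and 0.59 ± 0.12 between the deletions. Of 29 methionine and sulfate genes 10 were higher (3 with swr1 left out, 5 with either xrn1 library left out and 2 in the model of 15 libraries), with a median of 0.25, led by STR3 (0.96 ± 0.19) and MET13 (0.61 ± 0.13). Of 23 pyridoxine and thiamine genes 4 were higher, 1 was lower and 8 fell in swr1 against the controls, among them SNZ2 (-1.82 ± 0.26, adjusted p = 0.0067) and THI11 (-1.83 ± 0.28, adjusted p = 0.0081), both from families of close copies. None of the 23 passed in htz1, where SNZ2 was -0.73 ± 0.24. The medians of the 23 against the controls were -0.64 in swr1 and -0.29 in htz1. Whether swr1 differs from htz1 is given by the direct comparison, in which SNZ2 differed by 1.10 ± 0.38 with an adjusted p of 0.436.

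Subtelomeric hexitol and hexose-transporter genes showed how far a median can rest on 1 background. The 12 genes tested had a median of 1.10 over the 3 backgrounds, with medians of 0.44 in wild type, 3.12 in xrn1 and -0.08 in upf1, and none was past an unadjusted p of 0.05. HXT16 had 3.15, 0.384, 65.6 and 1.72 RPKM in htz1 1, htz1 2, htz1 xrn1 and htz1 upf1, against 0.501, 2.31 and 2.79 RPKM in swr1, swr1 xrn1 and swr1 upf1, so the htz1 xrn1 library alone was high. Of the 12 genes 5 fell in swr1 against the controls, where 3.71% of all genes fell, and none passed in htz1. The group was low on both sides, with medians of -1.31 in swr1 and -0.84 in htz1. Of the 12, 12 lay below 0 in swr1 and 10 in htz1.

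Some large housekeeping groups had small differences of 1 sign in all members in the fit over the backgrounds together. All 35 proteasome genes and all 30 genes of the tricarboxylic acid and glyoxylate cycles had positive differences, with medians of 0.18 and 0.31, and 3 and 7 of them were past an unadjusted p of 0.05. CIT2, the peroxisomal citrate synthase of the glyoxylate cycle, differed by 0.66 ± 0.12. Over all genes 4083 of 6495 differences were positive. All 121 ribosome biogenesis genes had negative differences, with a median of -0.40 and none past an unadjusted p of 0.05. Within backgrounds, 117 were below 0 in wild type and 121 in xrn1, but 45 were below and 76 above 0 in upf1. The medians were -0.44, -0.79 and 0.06. RRP15, for 60S assembly, had 85.2, 31.7, 55 and 92.6 RPKM in htz1 1, htz1 2, htz1 xrn1 and htz1 upf1, against 105, 138 and 107 RPKM in swr1, swr1 xrn1 and swr1 upf1. The low values belonged to htz1 2 and htz1 xrn1. By rDNA share, the htz1 libraries with 21.3% and 16.1% of rDNA RPKM summed to 17363 and 18064 RPKM over the 121 genes. Those with 0.434% and 0.0394% summed to 8574 and 13199 RPKM, and the swr1 libraries to 16344, 22108 and 17410.0 RPKM. Controls with little rDNA RPKM reached similar sums: wild type 1, xrn1 2 and upf1 1 had 17852, 17642 and 16755 RPKM, and the other 3 had 12738 to 13632 RPKM. Using only htz1 1 and htz1 upf1 against swr1 and swr1 upf1 the median was 0.06. With those 2 htz1 libraries left out it was -0.88, and 117 genes were lower at an unadjusted p under 0.05. With rDNA share as a term it was -0.18, and with STE2 level as a term 0.14.

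**Figure D4:**
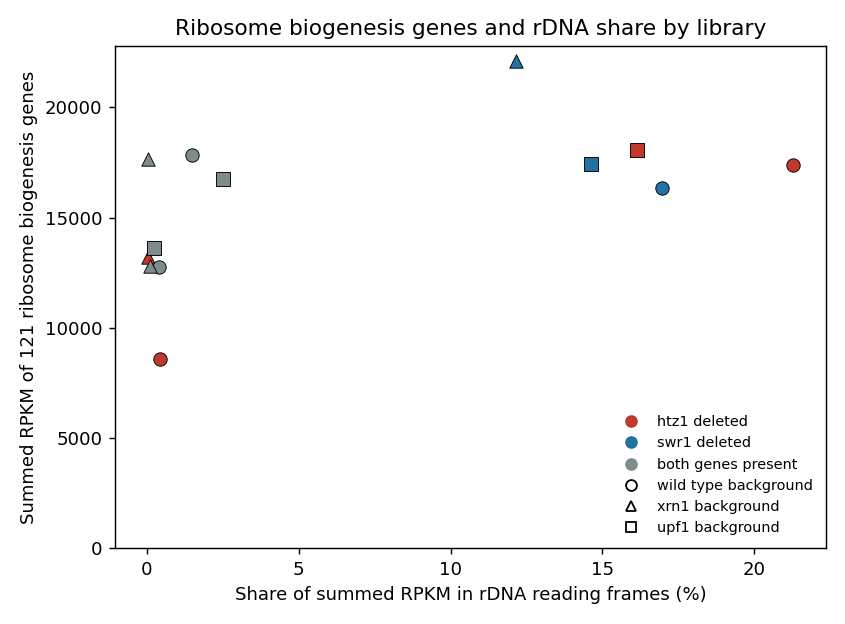
Summed RPKM of 121 ribosome biogenesis genes against the percent of RPKM in rDNA reading frames (both axes linear), 1 point per library. The htz1 libraries at 0.434% and 0.0394% lie lowest of the 7, and htz1 1 and htz1 upf1 lie near the swr1 libraries.

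Histone, chromatin and splicing groups gave few differences. The 10 core and linker histone genes had a median of -0.03 and the 19 H2A.Z chaperones and other remodellers one of -0.07, with none past an unadjusted p of 0.05. The 62 spliceosome genes were represented by 61 in the test, 2 of them higher, with a median of -0.11. Ribosomal protein genes with introns (89) had a median of -0.06 and none past that p. Of 180 other genes with introns 17 were higher, a share close to the 8.81% of all genes. The 1 that passed the adjusted test was HMRA1, a mating-type gene. The table gives 1 value per gene, so spliced and unspliced RNA were not separated here.

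**Figure D5:**
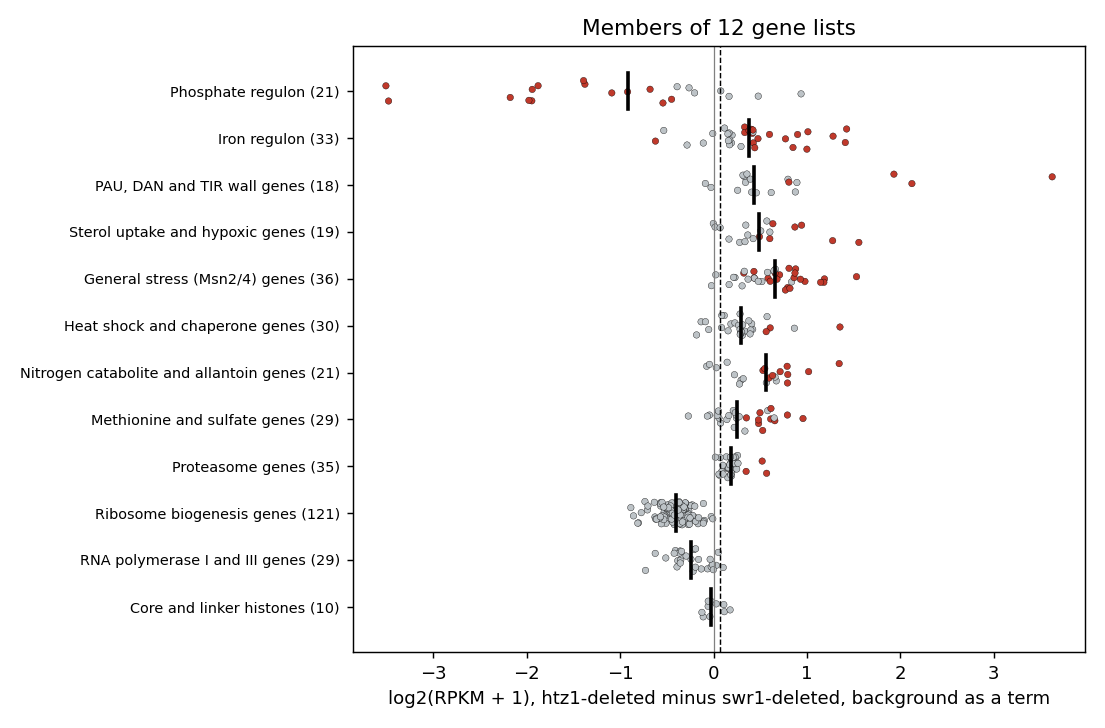
Log2 difference, htz1 minus swr1 over 3 backgrounds, of each member of the gene groups described (1 point per gene; red points past an unadjusted p of 0.05, black bars the group medians, dashed line the median of all genes, 0.07). The phosphate regulon extends furthest to the lower side, with a median of -0.92, and the stress, iron, nitrogen and wall groups lie on the higher side.

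Within single backgrounds, where swr1 had 1 library each, few genes passed. The fit gave each genotype its own mean and took the spread from the genotypes with 2 libraries. Among these pairs, wild type 1 and wild type 3 differ in mating-type pattern, and htz1 1 and htz1 2 in rDNA share. MF(ALPHA)1 and STE2 thus did not pass in wild type despite differences of -9.73 and 6.97. Few calls here, or in the comparison between backgrounds below, need not mean few differences. The fit also assumed that a lone library varies like those pairs. It called HTZ1, SWR1 and PHO84 in wild type (0.0462%), HTZ1 and SWR1 in xrn1 (0.0308%), and HTZ1, SWR1 and YLR466C-B in upf1 (0.0462%). YLR466C-B, a subtelomeric reading frame chosen for mention after its values were seen, had 0.317 RPKM in htz1 upf1 and 28.6 RPKM in swr1 upf1. Its values in the other htz1 libraries, 4.8, 2.1 and 10.8 RPKM, were not as low, and upf1 1 and upf1 2 had 16.4 and 14.2 RPKM. At an unadjusted p under 0.05 the counts were 160 in wild type, 314 in xrn1 and 145 in upf1. The difference between htz1 and swr1 was itself compared between backgrounds, and no gene passed (limma; 103 genes at an unadjusted p under 0.05 for xrn1 minus wild type, 53 for upf1 minus wild type and 109 for xrn1 minus upf1). The phosphate group's medians were -1.54 in wild type, -0.51 in xrn1 and -0.45 in upf1. SPL2 differed by -4.64, -2.72 and -2.79 in wild type, xrn1 and upf1, and FIT2 by 1.22, 1.58 and 1.54, without a difference between backgrounds past the test in either gene.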

How the data were processed

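The authors deposited 1 table of RPKM values for 15 libraries of rRNA-depleted RNA (TruSeq, per the labels' protocols). CASAVA, STAR 2.4.0 and build sacCer3 are named in the submitters' processing notes, and how reads were counted per gene is not given in the sources used here. Values times gene length came out as whole reads for 99.8% to 100% of low values (within 0.1 read), from which depth was taken. Of 6666 rows 6659 were kept, and 3 with no distinct name held 0.0203% to 0.129% of RPKM. 1 further column matched no sample and was not used. The 6495 genes that averaged 1 RPKM or more were tested on log2(RPKM + 1) with limma 3.58.1 in R 4.3.3, background as a term, Benjamini-Hochberg adjusted at 0.05. That scale understates changes of low genes. The fit has 3 residual degrees of freedom. The code was tested on simulated data.

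Members and gene lists were chosen with earlier results of these data known, so their counts are descriptions. Named by rule were the called genes, up to 12 in each direction, and from each list the called members or the 2 with the smallest p, and other members named were chosen after their values were seen. Gene names and promoters come from RefSeq (R64), and 5986 rows matched it.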

Additional observations from a re-analysis of the deposited data

Results flagged for a closer look

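In groups of 4 to 10 libraries, 1 library that stood far from the rest was looked for in 45 of the genes described, in the 4 htz1 libraries and the 6 controls. Of these 90 checks 15 met the criterion, and chance meets it in about 1 in 20. The groups mix backgrounds, so a gene that varies with XRN1 or UPF1 can meet it.

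In htz1 xrn1 9 genes stood above the other 3 htz1 libraries: SPL2 had 14.2 RPKM (others 1.99 to 3.43), DAN1 99.9 RPKM (8.83 to 13.5) and PHO89 13.8 RPKM (0.158 to 0.977). PHM7 had 18.3 RPKM there (others 0.711 to 2.4), SIT1 221 RPKM (49.2 to 66.6) and TIS11 204 RPKM (17.3 to 27.7). PAU5 had 42.2 RPKM (others 1.03 to 7.34), HES1, an oxysterol-binding protein gene, 44.5 RPKM (1.82 to 6.43), and GAP1, the general amino acid permease gene, 37.5 RPKM (7.79 to 8.56). PHM6 was high in htz1 1, at 6.0 RPKM (others 1.38 to 2.10).

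Among the controls, DAN1 was high in wild type 1, at 4.24 RPKM (others 0.385 to 1.21), as was FIT3, at 173 RPKM (79.4 to 111). SIT1 was high in xrn1 1, at 129.8 RPKM (others 11.9 to 33.95), as was TIS11, at 119.6 RPKM (3.14 to 21.2). HES1 was high in upf1 2, at 15.4 RPKM (others 1.97 to 4.57).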

How the results depend on the processing

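Of the 26 calls, 14 genes were higher and 12 lower in htz1 than in swr1. The higher count was 8 with voom on recovered reads, 28 and 26 in additive models of 13 and 15 libraries, and 7 with 1 mean per genotype (4 lower). It was 7 (3 lower) with rDNA share and 1 (1 lower) with STE2 level as a term. With libraries chosen after seeing the data it was 100 (29 lower) for htz1 1, htz1 upf1, swr1 and swr1 upf1 alone, and 7 with htz1 1 and htz1 upf1 left out. Leaving out 1 library at a time gave 9 to 16 higher and 8 to 13 lower. Against the controls, scaling to the same median log ratio gave 187 higher and 195 lower in htz1 and 75 higher in swr1. Leaving out 1 wild-type library gave 19 to 89 higher and 57 to 73 lower in htz1, and 17 to 37 higher and 166 to 224 lower in swr1. The number of adjusted calls within backgrounds did not change, while the unadjusted counts there rose with scaling to the same median log ratio.

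With STE2 level as a term 6 mating-type genes or neighbours changed sign: YKL177W (0.54), AFB1 (0.026), YLR041W (0.18), YCL065W (0.13), HMLALPHA1 (0.30) and HMRA1 (-0.070). STE2 is itself a MATa-specific gene, and its level sets the swr1 libraries and wild type 1 apart from the others. With this term the median difference over all genes was 0.40. A call lost with it therefore does not tell mating type from gene deletion. The 23 alternatives are not all distinct. Leaving out either library of an xrn1 or upf1 pair removes that background from the comparison, so both give the same difference. SPL2 lay between -3.85 and -2.23 over 23 alternatives and passed in 15, including all pseudocounts and filters, but not with voom (adjusted p = 0.0502). DAN1 (2.25 to 6.05) passed in 17, though not in the 15-library model (0.606). FIT2 (0.82 to 2.81) passed in 10, and not with scaling to the same median (0.0787). PHO84 (-4.00 to -2.08) passed in 5. The phosphate median ranged from -1.34 to -0.48, the stress median from 0.47 to 0.93, the iron median from 0.21 to 1.01 and the ribosome biogenesis median from -0.88 to 0.14. Each gene and list value, and the counts of calls outside the mating-type and deleted genes, was compared with the main fit in every alternative. Of these comparisons, which include the genes and lists just given, 3250 kept direction and side (for counts, a similar size). In 89 a call was lost, in 38 one was gained, 76 moved and 6 reversed. No paired analysis was possible because each swr1 group has 1 library and its number pairs nothing. With 3 swr1 libraries, and 7160197 reads in the shallowest, low genes are measured least precisely.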
